A study of Mus musculus with 6 samples.

Results

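The genes described here are 32 components of protein folding and quality control in the endoplasmic reticulum (ER), taken by symbol from a list of chaperones, disulfide-forming enzymes, degradation factors and stress sensors. All 32 were found among the 23154 genes measured. The cells were RAW264.7, a macrophage-like mouse cell line, and their poly(A) RNA was sequenced. The NUR77 group was a stable line with pINDUCER20b-HA-NUR77, which makes the nuclear receptor NUR77 (gene Nr4a1) with an HA tag when doxycycline is given, and the GFP group was a stable line with pINDUCER20b-GFP. From 24 hours after they were seeded, dishes of both lines were kept in 1 µg/mL doxycycline over 18 hours, with a dish for each replicate (n = 3 per line). Each group is 1 stable line and no doxycycline-free library was analysed here, so an effect of the transgene and a difference between the lines cannot be told apart, and the p-values cover only the variation among dishes of a line.

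Proteins that enter the ER are folded by chaperones of the HSP70 and HSP90 type, by lectin chaperones that read their glycans, and by disulfide isomerases that are reoxidised by ERO1 enzymes. Chains that fail to fold are trimmed, extracted through a membrane ubiquitin ligase complex and degraded by the proteasome, a route called ER-associated degradation (ERAD). When unfolded protein accumulates, the sensors IRE1α (Ern1), PERK (Eif2ak3) and ATF6 start the unfolded protein response, which raises the transcription of many of these genes through ATF6 and the spliced form of XBP1. In macrophages the same sensors are also linked to inflammatory signalling and to the secretion of proteins.

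A feature of some of the promoters is shown first. The ER stress response element (ERSE) is CCAAT and CCACG separated by 9 bases, known as a site of NF-Y and ATF6. A shorter relative, ERSE-II, is ATTGG and CCACG separated by 1 base. RefSeq promoter windows of the GRCm38.p6 build, from 250 bases before to 50 bases after each start, were matched for 28 of the 32 genes and searched on both strands. The ERSE was found in 10 of these 28 genes (35.7%), against 37 of all 27025 genes with a window (0.137%). The 10 genes were Hspa5, Hsp90b1, Dnajc3, Creld2, Calr, Canx, Pdia6, Ero1lb, Syvn1 and Derl3, and Hsp90b1 had 2 sites. ERSE-II was found in Herpud1 and Dnajb11 (7.14% of the 28 genes), against 0.0444% of all genes with a window. Sites are printed 5′ to 3′ on the strand of the gene with the paired boxes in capitals and 20 bases on each side. The first 4 belong to genes that were higher in the NUR77 line, the next 2 to genes that did not pass the test, and the last 2 carry ERSE-II.
Hspa5, chr2:34772005-34772063 (+): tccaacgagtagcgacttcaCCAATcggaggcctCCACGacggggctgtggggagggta
Hsp90b1, chr10:86705618-86705676 (−): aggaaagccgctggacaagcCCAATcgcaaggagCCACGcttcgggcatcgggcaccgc
Canx, chr11:50325780-50325838 (−): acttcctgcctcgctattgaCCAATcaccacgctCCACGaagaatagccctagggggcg
Pdia6, chr12:17266471-17266529 (+): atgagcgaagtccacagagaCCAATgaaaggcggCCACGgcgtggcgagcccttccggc
Dnajc3, chr14:118937807-118937865 (+): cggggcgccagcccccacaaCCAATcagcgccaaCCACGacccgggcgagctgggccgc
Syvn1, chr19:6046512-6046570 (+): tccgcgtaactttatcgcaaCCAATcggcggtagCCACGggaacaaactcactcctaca
Herpud1, chr8:94386357-94386407 (+): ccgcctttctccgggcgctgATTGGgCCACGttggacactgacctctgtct
Dnajb11, chr16:22857832-22857882 (+): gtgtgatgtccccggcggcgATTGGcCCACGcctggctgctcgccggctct

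In Hspa5 the site spans 65 to 47 bases before the start, and in Pdia6 it spans 98 to 80 bases before it. The window of Herpud1 also holds TTGCATCA, a core of the ATF4 type, which is in 0.895% of all windows. This site lies 112 to 105 bases before the start, ahead of ERSE-II.
Herpud1, chr8:94386297-94386344 (+): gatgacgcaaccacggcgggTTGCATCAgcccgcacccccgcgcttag

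The XBP1 core TGACGTGG was in no window of the 28 genes and in 0.714% of all genes with a window. These matches describe letters in a window and were not tested as sites.

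The unit throughout is the normalized read, a gene's reads scaled to 10000000 gene-assigned reads in the library, and depth was between 11199468 and 15929487 reads per library. Nr4a1 had 288, 314 and 297 normalized reads in the NUR77 libraries and 170, 148 and 161 in the GFP libraries (log2 fold change 0.90, limma adjusted p = 5.5e-08), with reads of the transgene and of the endogenous gene not separated. The labels do not say from which species the NUR77 sequence comes, and reads of a sequence unlike the mouse gene would be missed in part on mm10. Of 11 macrophage markers, 10 were tested, of which 2 rose and 6 fell (60.0%, against 28.3% of all tested genes), and together the 11 summed to between 29351 and 30926 in the NUR77 libraries and between 77234 and 78725 in the GFP libraries, with Csf1r, Cd68, Spi1 and Ptprc present and Mertk at or near 0. The largest falls among them were in Lyz2, at 2566 in NUR77 and 26664 in GFP, and Mpeg1, at 1019 in NUR77 and 16580 in GFP. NUR77 replicate 1 stood apart in tissue markers, with fibroblast markers summing to 114 there, against 29.4 and 43.2 in the other NUR77 libraries and 17.7 to 22.3 in the GFP libraries (Pdgfra at 0), and with Acta1 of skeletal muscle at 51.8, against at most 12.5 in any other library. Muscle markers summed to between 106 and 289 in the NUR77 libraries and between 381 and 435 in the GFP libraries. Most of the sum in the GFP libraries was Tnni2, at 336 to 385, against 58.5 to 96.4 in the NUR77 libraries. Endothelial markers summed to between 12.5 and 13.5 in the NUR77 libraries and between 129 and 151 in the GFP libraries, nearly all of it Vwf, with Tie1, Tek and Cdh5 at or near 0. Epithelial and lymphocyte markers summed to at most 3.14 in any library, with Cdh1, Krt5, Krt8, Cd3e, Cd3g and Ms4a1 at 0. Plasma cell markers, a secretory cell type rich in ER, summed to between 1371 and 1429 in the NUR77 libraries and between 1431 and 1469 in the GFP libraries, most of it Xbp1, with Derl3 at 0 and Jchain at or near 0. Their part in the results below was not tested.

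The 32 genes moved in both directions in the NUR77 line. Of the 31 tested, 14 were higher (45.2%, against 38.4% of all tested genes). These included all 6 genes for disulfide isomerases and oxidases, and also Herpud1, Sdf2l1 and Hsp90b1. The sensor gene Atf6 and the glycan-trimming genes Edem1 and Edem3 were lower (9.68%, against 28.3%). A further 14 genes, among them Hyou1, Calr and Xbp1, did not pass the test. All 32 genes together took 1.441% of the reads in the NUR77 libraries and 1.005% in the GFP libraries, a ratio of 1.43. Without Ero1l, the gene that moved most, the shares were 1.153% and 0.946% (ratio 1.22). With Ero1l included or left out, the sum in every NUR77 library was above that in every GFP library. With Ero1l it was 151281, 139006 and 141974 normalized reads in the NUR77 libraries, against 99319, 99074 and 102975 in the GFP libraries. Without Ero1l it was 122181, 114249 and 109332 in the NUR77 libraries, against 92437, 94500 and 96945 in the GFP libraries. In bulk RNA, more cells of a type and more RNA per cell cannot be told apart.

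Of the 32 genes, 31 passed the filter of a mean of 10 normalized reads and were tested. By limma with Benjamini-Hochberg adjustment over 11201 genes, 14 rose (45.2%), where 38.4% of all tested genes did, and 3 fell (9.68%), where 28.3% of all tested genes did. The remaining 14 did not pass the test. At 1.5-fold or more, 6 rose (19.4%, against 14.7% of all tested genes) and 1 fell (3.23%, against 11.9%). The 3 values of the NUR77 line lay above all 3 of the GFP line for 13 genes (41.9%, against 40.3%) and below them for 5 (16.1%, against 30.3%). The share that rose was thus near that of the genome, and the median log2 fold change was 0.10, against 0.06 over all tested genes. Under scaling by the trimmed mean of M values (TMM), 11 rose and 6 fell and the median of the 31 was 0.03. TMM lowers the median of all genes to -0.005, and under it 3682 of all 11201 tested genes rose and 3717 fell. Without NUR77 replicate 1, 13 of the 31 genes rose and 3 fell, where 4232 and 3025 of all 11188 tested genes did.

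**Figure D1:**
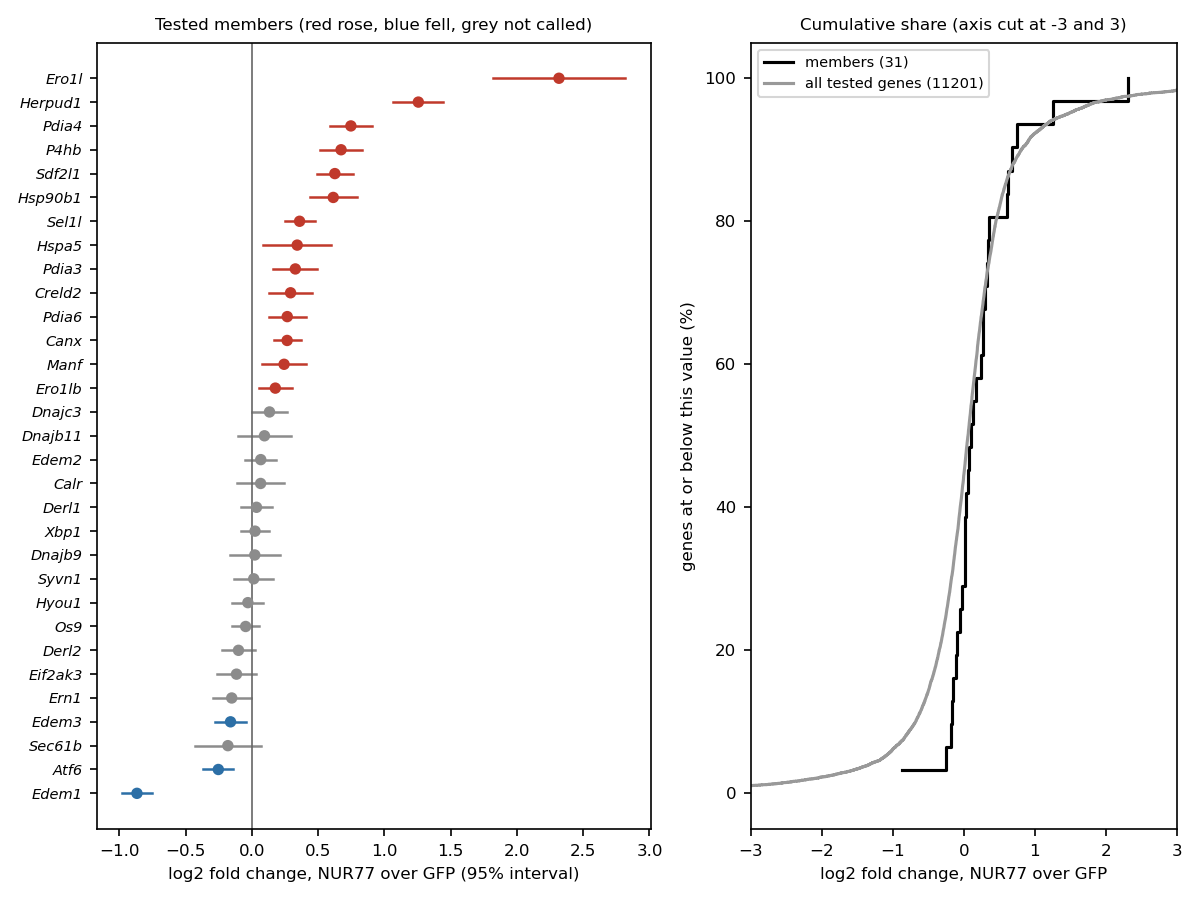
Log2 fold changes of the 31 tested genes, NUR77 over GFP, sorted by size with 95% confidence intervals (red rose, blue fell, grey did not pass the test), and beside them the cumulative share of these genes (black) and of all 11201 tested genes (grey). Ero1l at 2.32 and Herpud1 at 1.26 lie farthest to the right and Edem1 at -0.87 farthest to the left.

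The disulfide-forming enzymes were the role in which every gene rose, 6 of 6, where 38.4% of all tested genes did, with a median log2 fold change of 0.50. Under TMM 5 of the 6 rose, without Ero1lb, where 3682 of all 11201 tested genes did, and the median was 0.44. Together they took 0.67% of the reads in the NUR77 libraries and 0.325% in the GFP libraries, a ratio of 2.06. Without Ero1l the shares were 0.382% in NUR77 and 0.267% in GFP, a ratio of 1.43. No value of the NUR77 line overlapped the GFP line for any of the 6, where 40.3% of all tested genes were separated upward.

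Ero1l (now Ero1a; ENSMUSG00000021831, chromosome 14, 45283087 to 45318771 on the minus strand, mm10) encodes the oxidase that passes electrons from protein disulfide isomerase to oxygen and is known as a target of hypoxia-inducible factor. It had 29100, 24757 and 32641 normalized reads in the NUR77 libraries and 6882, 4574 and 6030 in the GFP libraries. The lowest NUR77 library was above the highest GFP library by a wide margin. The means were 28833 ± 3949 in NUR77 and 5829 ± 1167 in GFP (SD, n = 3 each), a ratio of 4.95 (log2 fold change 2.32, SE 0.19, adjusted p = 2.4e-04). By size of log2 fold change it ranked 480 among all tested genes. Its paralog Ero1lb (now Ero1b), best known from insulin-producing cells, averaged 676 ± 26.9 in NUR77 and 597 ± 16.0 in GFP (log2 fold change 0.18, adjusted p = 0.013). That call was lost under all 3 other scalings, under limma-voom and without GFP replicate 3.

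P4hb (ENSMUSG00000025130, chromosome 11, 120560298 to 120573253 on the minus strand) encodes protein disulfide isomerase itself, which is also a subunit of collagen prolyl hydroxylase. It was at 21003, 19788 and 21797 normalized reads in the NUR77 libraries and at 13925, 11434 and 14047 in the GFP libraries, so the groups were well apart (log2 fold change 0.67, SE 0.07, adjusted p = 2.6e-06). Pdia4 (ENSMUSG00000025823, chromosome 6, 47796141 to 47813430 on the minus strand), known as ERp72, was at 2549, 2537 and 2130 in the NUR77 libraries and at 1309, 1468 and 1515 in the GFP libraries. NUR77 replicate 3 was the lowest of its group and still above every GFP library (log2 fold change 0.75, SE 0.07, adjusted p = 3.1e-07). Pdia3, the isomerase that works with the lectin chaperones, averaged 8819 ± 1040 in NUR77 and 7003 ± 428 in GFP (log2 fold change 0.33, adjusted p = 2.3e-03). Pdia6, known as P5, averaged 5428 ± 515 in NUR77 and 4502 ± 268 in GFP (log2 fold change 0.27, adjusted p = 1.9e-03).

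Scaled by exon length, P4hb had the highest level of the 32 genes in both lines, at 7292 normalized reads per kilobase in NUR77 and 4591 in GFP. Ero1l followed in the NUR77 line at 5456 per kilobase, but was in the eighth place in the GFP line at 1103. Hsp90b1 stood at 3621 in NUR77 and 2355 in GFP, and Calr at 3021 in NUR77 and 2871 in GFP. The oxidase gene thus moved up to the second place in the NUR77 line, next to the isomerase it reoxidises. Ero1lb was far lower than Ero1l in both lines, at 102 per kilobase in NUR77 and 89.8 in GFP.

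**Figure D2:**
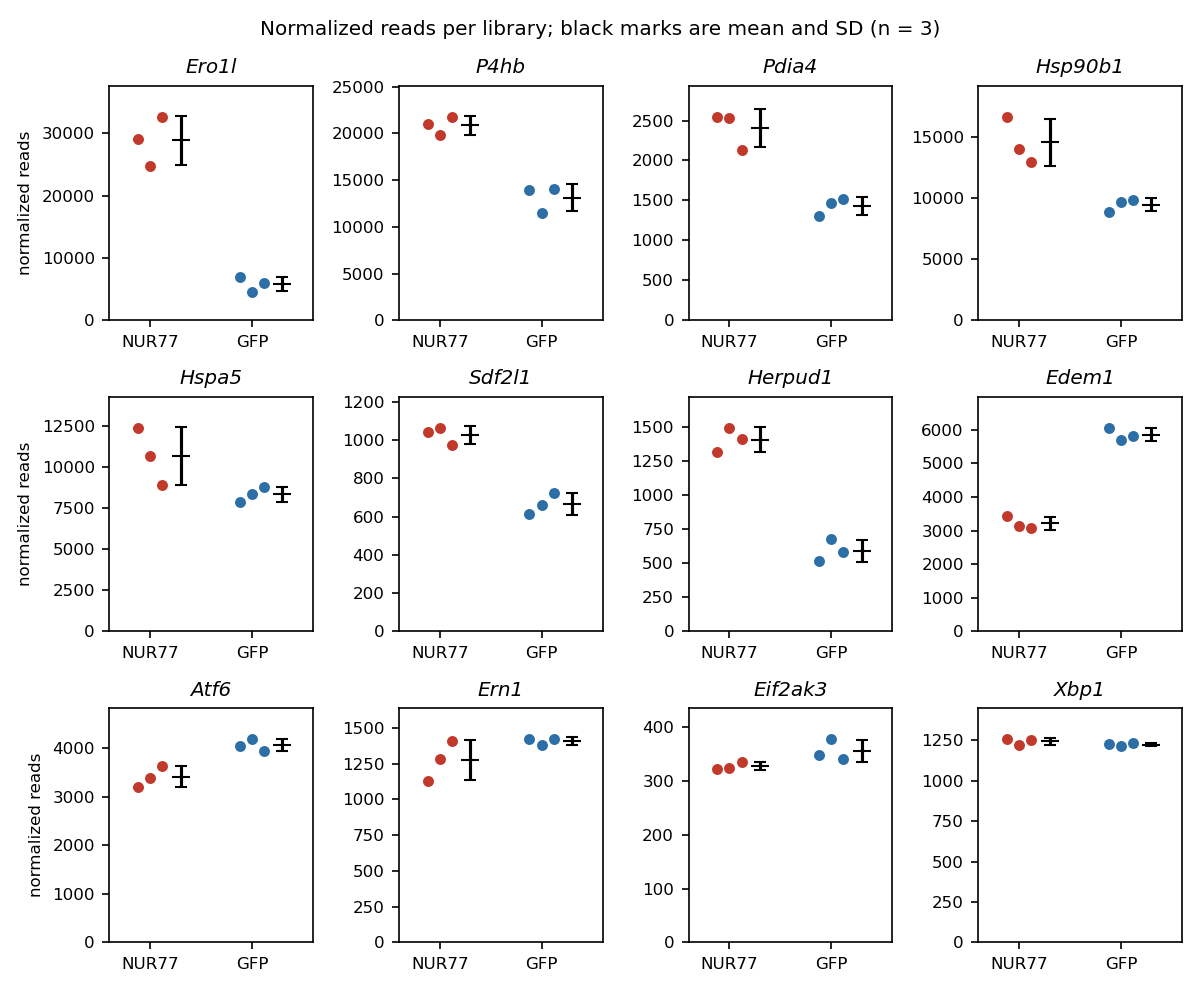
Normalized reads per library for 12 genes, NUR77 libraries in red on the left and GFP libraries in blue on the right of each panel, on linear axes from 0, with black marks for the mean and SD (n = 3). Ero1l, P4hb, Pdia4, Hsp90b1, Sdf2l1 and Herpud1 are separated upward and Edem1 downward, whereas the values of Xbp1 lie within 1215 to 1262 in all 6 libraries.

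The large ER chaperones were split. Hsp90b1 (ENSMUSG00000020048, chromosome 10, 86690209 to 86705509 on the minus strand) encodes GRP94, the HSP90 of the ER, which folds Toll-like receptors and integrins. It had 16714, 14090 and 12995 normalized reads in the NUR77 libraries and 8852, 9732 and 9904 in the GFP libraries. All 3 NUR77 values were higher (log2 fold change 0.61, SE 0.08, adjusted p = 3.3e-05). The exons of Hsp90b1 share 415 bases (10.3%) with 1810014B01Rik on the opposite strand, and it is not known here whether the reads were counted by strand, so reads of the pair may be mixed.

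Hspa5 (ENSMUSG00000026864, chromosome 2, 34771970 to 34777547 on the plus strand) encodes BiP, the HSP70 of the ER that also holds the sensors inactive, and is the most used marker of the unfolded protein response. It was at 12384, 10680 and 8869 normalized reads in the NUR77 libraries and at 7885, 8340 and 8765 in the GFP libraries. NUR77 replicate 3 was only just above the highest GFP library. Hspa5 rose slightly (log2 fold change 0.34, SE 0.11, 95% interval 0.09 to 0.60, adjusted p = 0.025). It lost its call in 8 of 16 alternatives, with adjusted p between 0.052 and 0.11 in those, among them TMM scaling and the fits that left out GFP replicate 1, GFP replicate 2 or NUR77 replicate 2. Hyou1, the large nucleotide exchange factor of BiP known as GRP170, averaged 3245 ± 189 in NUR77 and 3311 ± 169 in GFP and did not pass the test (log2 fold change -0.03, 95% interval -0.15 to 0.09).

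Of the 6 partners of BiP, 3 rose and none fell, where 38.4% and 28.3% of all tested genes did. Their median log2 fold change was 0.19. Sdf2l1 (ENSMUSG00000022769, chromosome 16, 17130138 to 17132383 on the minus strand), which works in a complex with the J protein of Dnajb11, was at 1040, 1066 and 977 normalized reads in the NUR77 libraries and at 615, 658 and 726 in the GFP libraries. The groups did not overlap (log2 fold change 0.63, SE 0.07, adjusted p = 2.2e-07). Creld2, a small ER protein induced by ER stress, averaged 552 ± 59.8 in NUR77 and 449 ± 18.9 in GFP (log2 fold change 0.29, adjusted p = 2.8e-03). Manf, a secreted factor that binds BiP, averaged 1025 ± 99.3 in NUR77 and 866 ± 80.3 in GFP (log2 fold change 0.24, adjusted p = 0.013). The groups of Manf overlapped. On the opposite strand, its exons share 4.7% of their bases with 4930524O07Rik and 4.1% with the protein-coding gene Dcaf1. The call of Manf was lost in 8 of 16 alternatives, including those that left out GFP replicate 1 or either of NUR77 replicates 1 and 2. The 3 J proteins did not pass the test. Dnajb9, an HSP70 cochaperone that represses IRE1α and a standard target of XBP1, averaged 182 ± 11.9 in NUR77 and 179 ± 9.44 in GFP (log2 fold change 0.02). Dnajb11 was at a log2 fold change of 0.10 and Dnajc3, known as P58IPK, at 0.13 (adjusted p = 0.069). Without NUR77 replicate 3 both passed, at adjusted p = 0.031 and 0.011.

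Of the 2 lectin chaperones, 1 rose and none fell, where 38.4% and 28.3% of all tested genes did. Canx, which encodes the membrane-bound calnexin, averaged 10818 ± 545 normalized reads in NUR77 and 8990 ± 157 in GFP (log2 fold change 0.27, SE 0.05, adjusted p = 1.2e-04). Calr, which encodes its soluble relative calreticulin, averaged 8700 ± 1154 in NUR77 and 8268 ± 380 in GFP (log2 fold change 0.07, adjusted p = 0.49). It passed without NUR77 replicate 3 (adjusted p = 0.017), the lowest of its group at 7485.

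**Figure D3:**
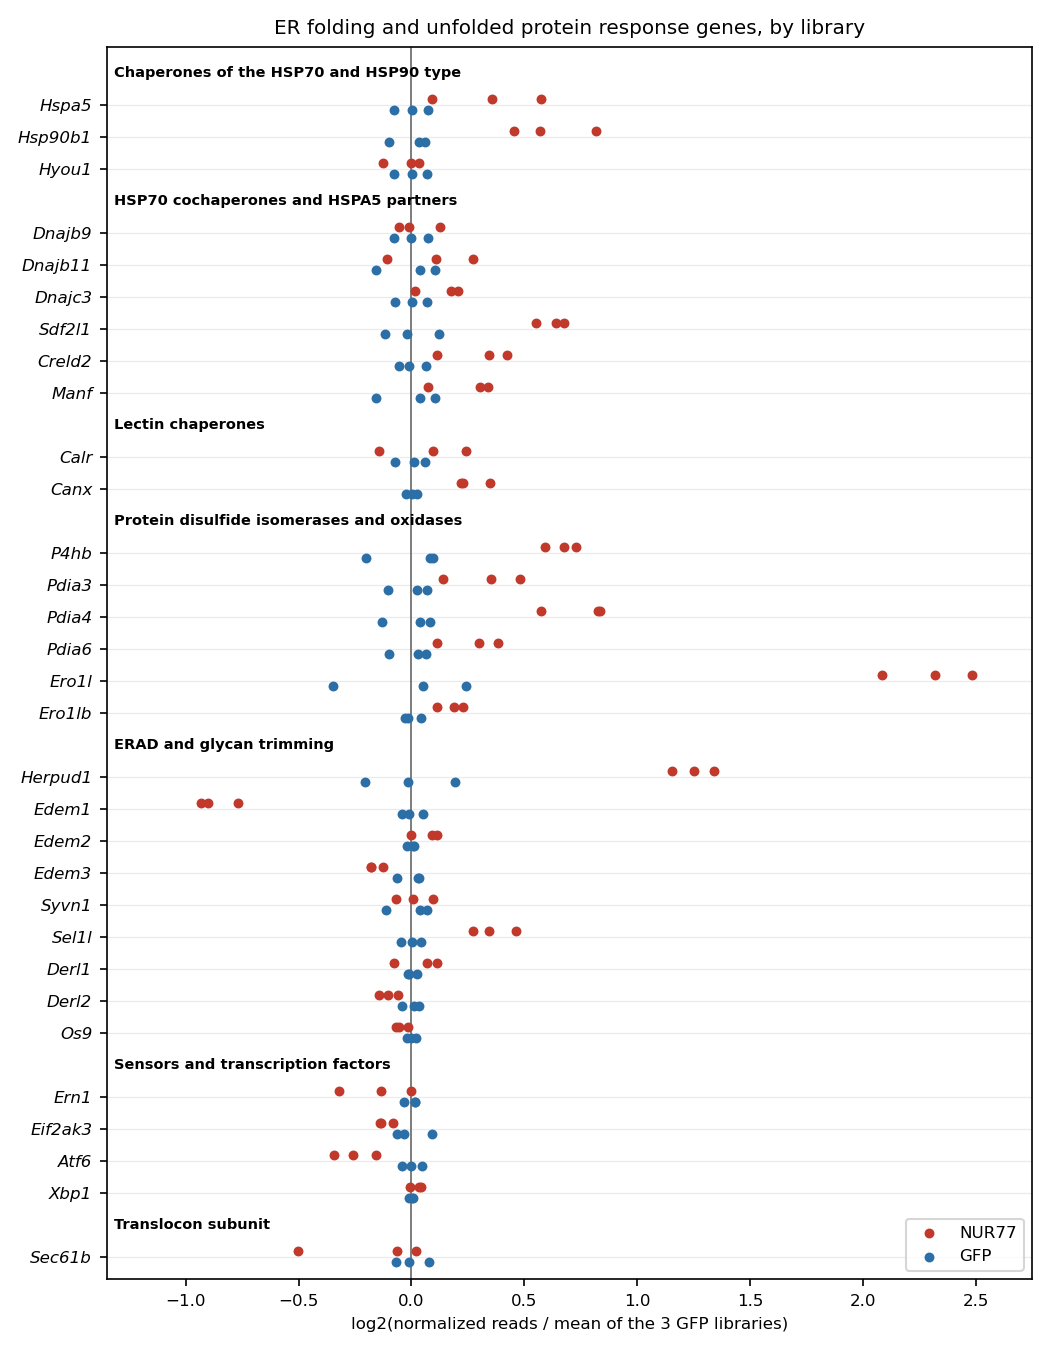
Each of the 31 tested genes by library, as the log2 of its normalized reads relative to the mean of the GFP libraries, with 3 red points for the NUR77 libraries above 3 blue points for the GFP libraries on each row and the genes grouped by role. Within the NUR77 line, replicate 1 was the highest for 16 of the 31 genes and replicate 3 the lowest for 17.

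The libraries within a line were not ranked evenly over these genes. NUR77 replicate 1 was the highest NUR77 library for 16 of the 31 genes (31.3% of all tested genes) and NUR77 replicate 3 the lowest for 17 (30.7%). GFP replicate 1 was the lowest GFP library for 18 (36.2%). The 3 classical targets Hspa5, Hsp90b1 and Calr all followed this order in the NUR77 line, at 12384, 16714 and 9781 in replicate 1 and at 8869, 12995 and 7485 in replicate 3. Replicate 1 is the library with the raised tissue markers, whose part in this order was not tested.

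ERAD genes moved in both directions: of 9 tested, 2 rose (22.2%, against 38.4% of all tested genes), 2 fell (22.2%, against 28.3%) and 5 did not pass the test, with a median log2 fold change of 0.01 (-0.05 under TMM). Herpud1 (ENSMUSG00000031770, chromosome 8, 94386438 to 94395377 on the plus strand) encodes a membrane protein that assembles the HRD1 ligase complex and responds to ATF4, ATF6 and XBP1. It was at 1316, 1497 and 1411 normalized reads in the NUR77 libraries and at 514, 677 and 585 in the GFP libraries. The means were 1408 ± 90.5 in NUR77 and 592 ± 82.1 in GFP, a ratio of 2.38 with no overlap (log2 fold change 1.26, SE 0.09, adjusted p = 3.3e-08).

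Edem1 (ENSMUSG00000030104, chromosome 6, 108828641 to 108859356 on the plus strand) encodes a mannosidase-like protein that marks misfolded glycoproteins for ERAD and is a standard target of XBP1. It had 3439, 3135 and 3065 normalized reads in the NUR77 libraries and 6065, 5694 and 5803 in the GFP libraries. Each NUR77 value was below every GFP value. The means were 3213 ± 199 in NUR77 and 5854 ± 191 in GFP (log2 fold change -0.87, SE 0.05, adjusted p = 2.4e-10), and the value stayed between -0.93 and -0.83 in all 16 alternatives. Its relatives are described beside it, with no test between them. Edem3 fell, at 785 ± 16.8 in NUR77 and 878 ± 34.0 in GFP (log2 fold change -0.16, adjusted p = 0.016), and lost its call without GFP replicate 1 or GFP replicate 3. Edem2 was at a log2 fold change of 0.07 and did not pass the test (adjusted p = 0.29).

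Of the ligase complex, Sel1l, the adaptor that hands substrates to HRD1, rose to 6500 ± 444 in NUR77, against 5057 ± 153 in GFP (log2 fold change 0.36, adjusted p = 1.5e-05). Syvn1, which encodes HRD1 itself, averaged 482 ± 27.3 in NUR77 and 477 ± 31.7 in GFP (log2 fold change 0.01, 95% interval -0.13 to 0.16). The lectin Os9 and the channel components Derl1 and Derl2 did not pass the test either, at log2 fold changes of -0.05, 0.04 and -0.10. Derl2 was called lower under all 3 other scalings and under limma-voom. Derl3, a derlin typical of secretory cells, had no read in any of the 6 libraries, which allows up to 0.787 normalized reads in NUR77 and 0.658 in GFP for a count of 3 over the group, counting error only.

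Of the 4 genes for sensors and transcription factors, 1 fell (25.0%, against 28.3% of all tested genes) and 3 did not pass the test. Atf6 (ENSMUSG00000026663, chromosome 1, 170704674 to 170867771 on the minus strand), which encodes the membrane-bound transcription factor, was at 3206, 3392 and 3638 normalized reads in the NUR77 libraries and at 4050, 4194 and 3939 in the GFP libraries. The groups did not overlap and Atf6 fell (log2 fold change -0.25, SE 0.05, adjusted p = 5.2e-04). Ern1 (ENSMUSG00000020715, chromosome 11, 106394650 to 106487852 on the minus strand), the kinase and endonuclease that splices Xbp1, was at 1126, 1284 and 1407 in the NUR77 libraries and at 1424, 1377 and 1422 in the GFP libraries. NUR77 replicate 3 overlapped the GFP line, and the difference did not pass the test (log2 fold change -0.15, adjusted p = 0.058). It was called lower under TMM (adjusted p = 0.010), under both other scalings, under limma-voom and without NUR77 replicate 3.

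Eif2ak3 (ENSMUSG00000031668, chromosome 6, 70844515 to 70905245 on the plus strand), the kinase that phosphorylates eIF2α, was at 323, 325 and 336 normalized reads in the NUR77 libraries and at 348, 379 and 340 in the GFP libraries. All NUR77 values were lower by a narrow margin and the test was not passed (log2 fold change -0.12, adjusted p = 0.15), although it was under the 3 other scalings and limma-voom. Gm43292 on the opposite strand shares 8.0% of its exon bases. Xbp1 (ENSMUSG00000020484, chromosome 11, 5520659 to 5525893 on the plus strand) was at 1262, 1220 and 1255 in the NUR77 libraries and at 1228, 1215 and 1231 in the GFP libraries. The groups overlapped within a narrow range (log2 fold change 0.02, 95% interval -0.08 to 0.13, adjusted p = 0.69). These values sum all transcripts of the gene, so spliced and unspliced Xbp1 were not separated. Sec61b, a subunit of the translocon, averaged 359 ± 65.6 in NUR77 and 403 ± 21.0 in GFP and did not pass the test (log2 fold change -0.18, adjusted p = 0.18), with NUR77 replicate 1 low at 285. Its log2 fold change was -0.02 without that library, and without NUR77 replicate 2 it was -0.28 and called lower (adjusted p = 0.041).

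The genes with an ERSE or ERSE-II and those without were set side by side with no test of the difference. Of the 11 tested genes with either element, 7 rose and none fell (38.4% and 28.3% of all tested genes), with a median log2 fold change of 0.27 and a range of 0.01 to 1.26. Of the 16 matched genes with neither, 6 rose and 2 fell, with a median of 0.02. Under TMM, where 3682 of all 11201 tested genes rose and 3717 fell, Hspa5 and Ero1lb of the 7 lost their calls (limma adjusted p = 0.052 and 0.096). The 6 that rose with neither element kept their calls in all 16 alternatives. Ern1, Eif2ak3 and Derl2, which also have neither, were called lower under TMM. Outside the 32, the windows of 27 genes hold the ERSE, of which 17 were among the genes measured and 5 were tested. Of these 5, 2 rose and 2 fell, with a median of -0.12 and a range of -5.41 to 0.47. Ero1l, Pdia4, P4hb and Sdf2l1 are in the group with neither, as is Edem1, so 4 of the 6 genes that rose by 1.5-fold or more, and the 1 that fell by as much, had no such element in this window.

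Genes that work beside these were examined in 10 lists holding 189 genes, of which 179 were tested. Of those, 59 rose (33.0%, against 38.4% of all tested genes) and 48 fell (26.8%, against 28.3%). Under TMM 48 rose and 59 fell, where 3682 and 3717 of all 11201 tested genes did. The medians of the other ERAD components (0.01) and of retrieval and ER exit (0.02) turned to -0.05 and -0.04 under TMM, and no other list median changed sign.

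**Figure D4:**
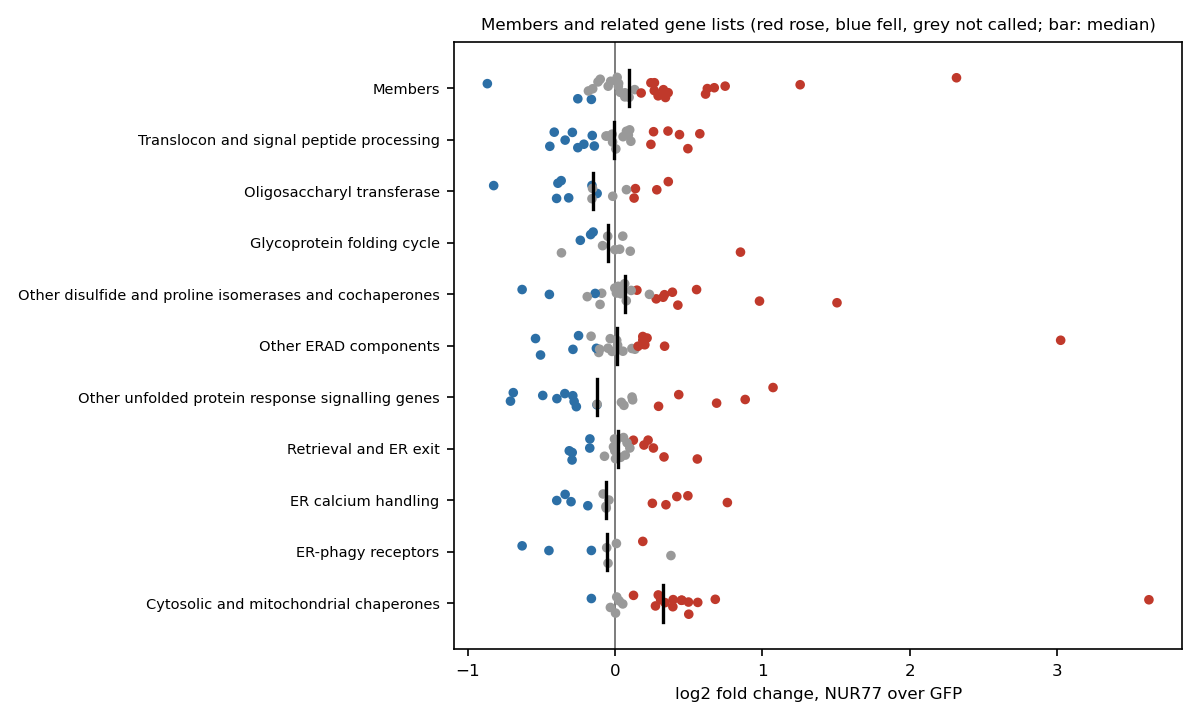
Log2 fold changes, NUR77 over GFP, of the 31 genes (top row) and of the tested genes of 10 neighbouring lists, each point a gene (red rose, blue fell, grey did not pass the test) and each black bar the median of a row. The cytosolic and mitochondrial chaperones lie mostly above 0 (median 0.32) and the oligosaccharyl transferase genes mostly below it (median -0.15).

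Among other genes of unfolded protein response signalling, 19 were tested, of which 5 rose (26.3%) and 9 fell (47.4%), against 38.4% and 28.3% of all tested genes, with a median log2 fold change of -0.12. Ddit3, which encodes the pro-apoptotic factor CHOP of the PERK branch, fell to 788, 829 and 815 normalized reads in the NUR77 libraries, against 1112, 1511 and 1334 in the GFP libraries. The 3 NUR77 values were close together and below all GFP values (log2 fold change -0.69, SE 0.09, adjusted p = 1.9e-05). Atf4, the transcription factor above Ddit3, averaged 5270 ± 124 in NUR77 and 4867 ± 483 in GFP and did not pass the test (log2 fold change 0.12, adjusted p = 0.092), except without GFP replicate 2 (adjusted p = 3.2e-03). Ppp1r15a, whose product GADD34 reverses eIF2α phosphorylation, fell (log2 fold change -0.26, adjusted p = 0.014), a call lost without GFP replicate 2, without NUR77 replicate 1 and without the trend in limma.

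Other genes of this list went the other way. Chac1, a glutathione-degrading enzyme downstream of ATF4, averaged 391 ± 23.3 in NUR77 and 216 ± 52.8 in GFP (log2 fold change 0.88, adjusted p = 8.1e-04). Traf2, an adaptor that binds IRE1α and also serves the TNF receptor, averaged 433 ± 23.6 in NUR77 and 206 ± 9.07 in GFP (log2 fold change 1.07, adjusted p = 1.3e-09). Wfs1, an ER membrane protein that regulates ATF6, fell (log2 fold change -0.71, adjusted p = 1.7e-04) at a low level of 66.7 in NUR77 and 110 in GFP. Genes assigned to the PERK and ATF4 branch thus included both Chac1, which was higher, and Ddit3, which was lower.

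Entry into the ER and glycosylation were covered by 3 lists. Over all tested genes, 38.4% rose and 28.3% fell. Of 15 genes of the oligosaccharyl transferase and of glycan assembly, 4 rose (26.7%) and 7 fell (46.7%), with a median of -0.15. The largest changes were in the small subunits Ost4 (log2 fold change -0.82), Dad1 (-0.40) and Tmem258 (-0.39). Ost4 averaged 247 ± 9.79 in NUR77 and 439 ± 26.0 in GFP. Of 24 genes of the translocon, the signal recognition particle and signal peptidase, 6 rose (25.0%) and 8 fell (33.3%), with a median of -0.01. Srp72 of the signal recognition particle rose (0.49) and Sec62 of the translocon fell (-0.44). Srp54c rose (0.57), but it has near-identical copies and its value is uncertain. Of 11 genes of the glycoprotein folding cycle, 1 rose (9.09%) and 3 fell (27.3%). Man1a, a Golgi mannosidase, rose (0.85), the glucosidase gene Mogs fell (-0.24), and the cargo lectin gene Lman2 fell (-0.17), a call lost in 4 alternatives, 3 of which left out GFP replicate 2, GFP replicate 3 or NUR77 replicate 1.

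Of 24 further disulfide and proline isomerases and cochaperones, 9 rose (37.5%) and 3 fell (12.5%), with a median of 0.07. Over all tested genes, 38.4% rose and 28.3% fell. The transmembrane thioredoxin relatives were split, as Tmx1 fell to 1048 ± 10.2 in NUR77, against 1625 ± 8.22 in GFP (log2 fold change -0.63), and Tmx4 rose (0.55). Txndc5, a further isomerase, fell (-0.45). In this list 2 genes rose by 1.5-fold or more (8.33%, against 14.7% of all tested genes), and the largest log2 fold change was 1.51. Those genes are not named here. Of 24 other ERAD components, 8 rose (33.3%) and 5 fell (20.8%), with a median of 0.01. Svip, an inhibitor of ERAD that binds the ATPase VCP, had the largest fold change of this list, at 117, 104 and 139 normalized reads in the NUR77 libraries and 15.3, 11.3 and 15.0 in the GFP libraries (log2 fold change 3.02, SE 0.18, adjusted p = 1.4e-10). Svip was low in the GFP line in all 3 libraries. Erlin2, which directs the removal of inositol trisphosphate receptors, fell (-0.54), and Aup1, a recruiter of ubiquitin-conjugating enzymes, fell (-0.51).

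Soluble ER chaperones are returned from the Golgi by KDEL receptors. Kdelr1 fell to 768 ± 54.2 in NUR77, against 939 ± 31.6 in GFP (log2 fold change -0.29, adjusted p = 4.5e-04), and Kdelr2 did not pass the test (0.07, adjusted p = 0.30). Kdelr3 was under the filter, at 11.6, 11.2 and 11.9 normalized reads in the NUR77 libraries and 4.18, 8.16 and 1.96 in the GFP libraries. Over the whole list of retrieval and ER exit, 6 of 22 rose (27.3%, against 38.4% of all tested genes) and 5 fell (22.7%, against 28.3%), with a median of 0.02. The coat genes Sec24d (0.56) and Sec24a (0.33) rose and Sec13 (-0.31) fell.

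Of 13 genes of ER calcium handling, 5 rose (38.5%, against 38.4% of all tested genes) and 4 fell (30.8%, against 28.3%), with a median of -0.06. The inositol trisphosphate receptors Itpr1 (0.76) and Itpr3 (0.49) and the calcium pump Atp2a3 (0.42) rose. Of 8 receptors of ER-phagy, the autophagy of ER membrane, 1 rose (12.5%) and 3 fell (37.5%), with a median of -0.05. Tex264 (-0.63) and Calcoco1 (-0.45) fell, and Fam134c rose (0.19), a call lost under the 3 other scalings and limma-voom.

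Chaperones outside the ER were examined last. Of 20 cytosolic and mitochondrial chaperones tested, 14 rose (70.0%, against 38.4% of all tested genes) and 1 fell (5.0%, against 28.3%), with a median log2 fold change of 0.32 (0.26 under TMM). Hspa8, the constitutive HSP70 of the cytosol, averaged 7560 ± 816 in NUR77 and 4702 ± 107 in GFP (log2 fold change 0.68). Hsp90aa1, a cytosolic HSP90, was at 0.56 and Cct2, a subunit of the TRiC chaperonin, at 0.50. The largest log2 fold change in this list was 3.62, in a gene not named here. Hspa8 and Hsp90aa1 have processed pseudogenes that can share their reads, so their values are uncertain.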

How the data were processed

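The authors deposited log2 values for 6 libraries, which the values show to be log2(normalized reads + 1). The tools named, per the submitters' processing notes, are TopHat2 2.1, HTSeq and DESeq2, with mm10 as the build. The sources used here do not give their roles or the strand setting. With the log undone, each library sums to 10000000 and whole reads are recovered for 100% of values within 0.1 read, so the scaling fixes equal totals and abundant genes that differ shift the rest. The labels describe stranded poly(A) libraries.

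Genes were named from the GENCODE mouse annotation of mm10, which named 22888 identifiers and left 266 without a name. Genes with a mean of 10 or more were tested in R 4.3.3 with limma 3.58.1 (mean-variance trend, robust moderation) on log2(normalized reads + 1), without covariates, at a Benjamini-Hochberg adjusted p under 0.05. A fold change (NUR77 over GFP) is on the log2(value + 1) scale and understates the change of low genes. The procedure was run on simulated data in which far fewer genes changed than were called here, so that run does not vouch for the calls. No 2 libraries of a line agreed within sampling noise (chi-square per degree of freedom 2.48 or more). PCR copies were not marked by molecular identifiers, so limits cover counting error only. Promoter sequences are from RefSeq, GRCm38.p6.

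The genes, lists and tests were chosen with earlier results of these data known. Values in every library are given for genes past the test at an absolute log2 fold change of 0.4 or more, for the sensors, Xbp1 and Hspa5, and for genes under the filter. Of each neighbouring list, up to 3 called genes with the largest change and, in the higher line, a mean of at least 50 are named, plus Ddit3, Atf4, Ppp1r15a and the Kdelr genes. Protein sequences were not analysed here. Alternatives were pseudocounts of 0.5 and 5, no filter, a filter at 50, TMM, upper-quartile and median-of-ratios scaling, limma without trend, limma-voom on recovered reads, a replicate block, and each library left out in turn.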

Additional observations from a re-analysis of the deposited data

How the results depend on the processing

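No fold change of a called gene changed sign in the 16 alternatives, and 454 of 496 values for the 31 tested genes kept their side of the threshold, while 23 lost a call and 19 gained one, in 11 genes. The number of genes that fell was 6 under TMM, median-of-ratios and upper-quartile scaling and under limma-voom, against 3 in the main analysis. Ern1, Eif2ak3 and Derl2 passed there in addition. Under these settings 11 rose, 4 of them by 1.5-fold or more. Over all 11201 tested genes, between 3656 and 3721 fell and between 3682 and 3771 rose under these settings. In the main analysis 3170 of all tested genes fell and 4305 rose, 1646 of them by 1.5-fold or more. The count at 1.5-fold over all tested genes was taken only in the main analysis. With each library left out in turn, between 12 and 17 genes rose and between 2 and 4 fell, and between 4 and 6 rose by 1.5-fold or more. Over all tested genes, between 3960 and 4232 rose and between 2788 and 3146 fell in these fits. With the replicate number as a block (replicate block) 14 rose and 4 fell, where 4365 and 3220 of all 11201 tested genes did. Ern1 was added there (adjusted p = 0.039). The replicate numbers did not pair the dishes, as same-numbered deviations correlated at 0.002, 0.114 and 0.045. Depth limited only Derl3, which had no read and could not be compared.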
